A study of Saccharomyces cerevisiae with 6 samples.

Results

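Long gaps without Rrm3 were studied here in sac3Δ cells of *Saccharomyces cerevisiae*. A long gap was an interval of 2000 bp or more between consecutive Rrm3 binding clusters on the same chromosome. The gaps were chosen by their length in the Rrm3 list alone, and 648 of 7086 gaps (9.14%) met this limit. The other 6438 gaps, all under 2000 bp, served as the comparison. Number, length, order and place of the gaps all come from the list that selected them, so they are given as a description. Thp1 and Sac3 clusters come from arrays that the selection did not use.

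The study mapped the 3 proteins by ChIP-chip, in which DNA recovered with an antibody is hybridized to a tiling microarray and set against the DNA left in the supernatant or input. Rrm3::FLAG was mapped in strain S3RBb-5B, which carries sac3::KanMX, bar1Δ and ura3::URA3/GPD-Tk(7x), and the methods combine its 2 repetitions in 1 list. Thp1 and Sac3 were each mapped in 1 array experiment in cells of strains THP1-FLAG (THP1::FLAG::KanMX, ura3-1) and SAC3-FLAG (SAC3::FLAG::KanMX, ura3-1), in which SAC3 was not deleted. All strains were MATa and shared, among other markers, the alleles his3-11,15, can1-100 and ade2-1, and cells grew asynchronously in YPD at 30°C before precipitation with the anti-FLAG antibody M2. Rrm3 in sac3Δ cells was therefore compared with TREX-2 in cells of another genotype, and strain and protein cannot be told apart. Lists of Rrm3 in thp1Δ or wild-type cells were not analyzed here.

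Rrm3 is a 5′ to 3′ DNA helicase of the moving replication fork, which it helps past protein–DNA barriers, such as those at the ribosomal DNA, tRNA genes, telomeres and inactive origins. Thp1 and Sac3 are subunits of TREX-2, a complex of the nuclear pore that couples transcription to the export of mRNA. Sac3 is its scaffold, and Thp1 binds to it in the part that contacts nucleic acid. Cells that lack TREX-2 show transcription-dependent genome instability, and Rrm3 was mapped in TREX-2 mutants to look for replication problems.

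The Rrm3 list held 7102 clusters that covered 43.3% of a span of 12069093 bp. The Thp1 list held 2485 clusters over 11.2% of the span, and the Sac3 list 2282 clusters over 11.1%. Each cluster is listed by its borders alone, without signal, and no genome build is named. Positions are therefore written as in the lists, counted from 1, and no gene or sequence was assigned. The lists do not show where the probes lie, so DNA without probes and DNA under the threshold cannot be told apart in a gap. With 1 list per protein no spread between replicates was available and no test was made. The 95% intervals below are Wilson for shares, Newcombe for their differences and exact Poisson for counts per Mb. Those of medians are taken from the ranked values by the binomial distribution. They cover only counting error or, for medians, the sampling of regions, and neighboring gaps are not independent.

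Long gaps were few but held much of the DNA without Rrm3. They summed to 1834637 bp, which was 26.8% of all Rrm3-free DNA between clusters and 15.2% of the span. When gaps were rebuilt with Rrm3 clusters of at least 300 bp alone, long gaps held 54.9% of the Rrm3-free DNA and shorter gaps 45.1%. With all clusters, gaps under 2000 bp summed to 5006787 bp, or 41.5% of the span. There were 53.7 long gaps per Mb, against 533 shorter gaps per Mb. The mean length was 2831 ± 839 bp for long gaps (SD across 648 gaps) and 778 ± 439 bp for shorter gaps (SD across 6438 gaps). Medians were 2557.5 bp for long gaps and 656.5 bp for shorter gaps, which ran down to 251 bp.

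Within the long gaps, numbers fell quickly with length and no break set the 2000 bp limit apart. The gaps just inside the limit measured 2000, 2001, 2001, 2003 and 2003 bp, and those just outside it 1995, 1996, 1996, 1997 and 1999 bp. Of the 648 long gaps, 292 were between 2000 and 2500 bp and 159 between 2500 and 3000 bp. A length of 3000 bp or more was reached by 197 gaps, 4000 bp by 55, 5000 bp by 21, 6000 bp by 7, and 7000 bp by 1. The plot of gap numbers against minimum length shows this decline as a nearly straight line on a log scale through the limit.

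**Figure D1:**
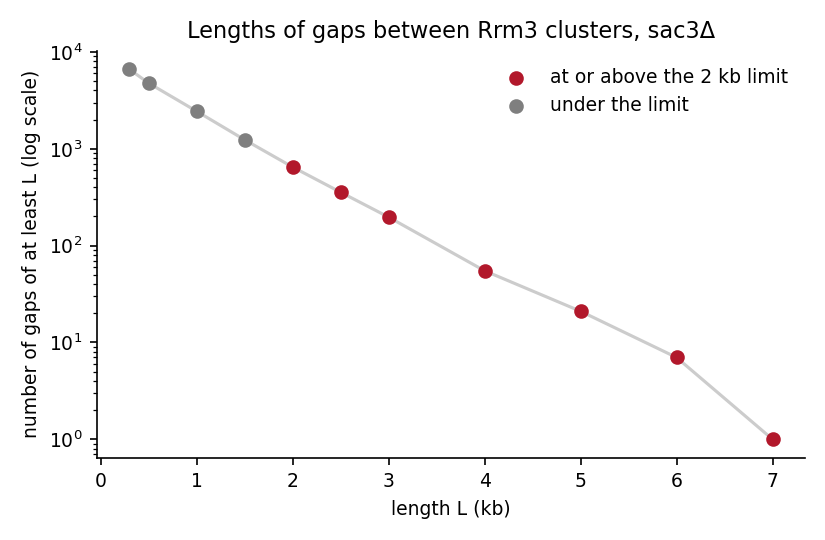
Number of gaps between Rrm3 clusters in sac3Δ cells (y axis, log scale) that are at least as long as the length on the x axis (kb). Red points are lengths at or above the 2 kb limit (648 gaps of at least 2000 bp, 1 of at least 7000 bp) and gray points lengths under it (1239 gaps of at least 1500 bp), with no break at the limit.

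The longest gap, 7552 bp on chromosome IV (379937 to 387488), lay between Rrm3 clusters of 942 and 661 bp. It held 2 Thp1 clusters and 0 Sac3 clusters. The next were 6773 bp on chromosome XI (189305 to 196077), 6763 bp on chromosome III (149294 to 156056), 6751 bp on chromosome XV (260933 to 267683) and 6698 bp on chromosome XIV (175086 to 181783). Chromosome IV had a further gap of 6292 bp (681912 to 688203), and chromosome II had gaps of 6253 bp (517428 to 523680) and 5558 bp (597404 to 602961). The 10 longest were completed by gaps of 5685 bp on chromosome XVI (658787 to 664471) and 5485 bp on chromosome III (274030 to 279514). They thus came from 7 chromosomes, and only the last lay within 50 kb of a chromosome end, at 39.6 kb. Of these 10 gaps, those of 7552 and 6763 bp touched a Thp1 cluster, where 2.85% of gaps of any length did. A Sac3 cluster touched 0 of the 10, where 1.38% of gaps of any length did, which is too few gaps to read a difference.

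Long gaps occurred on all 16 chromosomes. Their number per Mb was lowest on chromosome I (7 gaps, 30.4 per Mb, interval 12.2 to 62.7) and highest on chromosome II (55 gaps, 67.6 per Mb, interval 51.0 to 88.1). Chromosome XIV was the only one whose interval did not reach the value of all chromosomes, with 29 gaps or 37.0 per Mb (interval 24.8 to 53.1, against 53.7). On 0 chromosomes did the interval lie above that value. Long gaps took up 8.53% of the span of chromosome I, against 19.2% on each of chromosomes II, III and XI. The longest gap of a chromosome ranged between 3475 bp on chromosome I and 7552 bp on chromosome IV, and 11 chromosomes had a gap of 5000 bp or more. Chromosome I also had the highest cover of the 16 by Rrm3 (49.3%) and the most Sac3 clusters per Mb (252), and the part of these in its few long gaps was not tested.

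**Figure D2:**
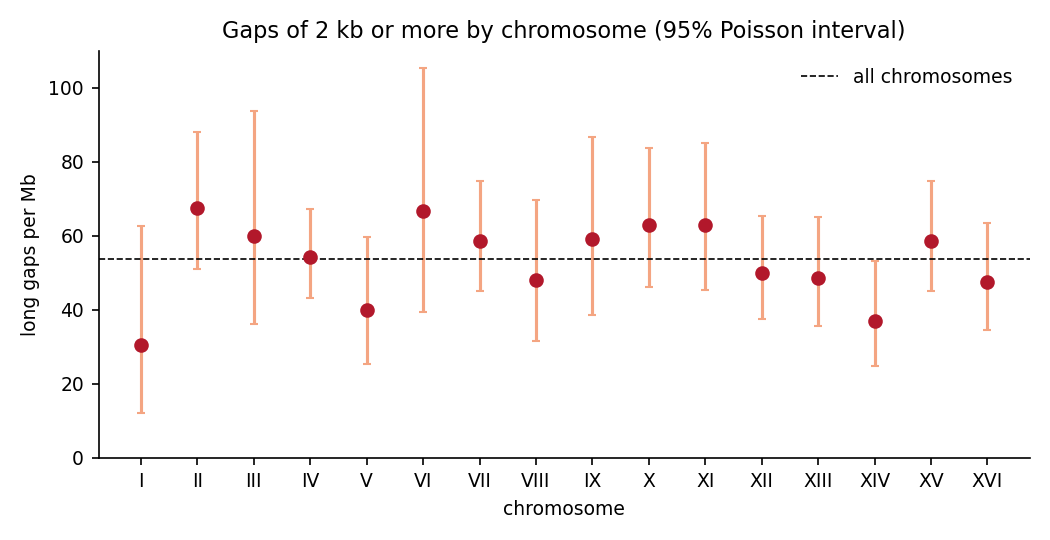
Long gaps per Mb (y axis) on each of the 16 chromosomes (x axis), as points with 95% Poisson intervals for counting error, and a dashed line at the 53.7 per Mb of all chromosomes. The points run between 30.4 on chromosome I and 67.6 on chromosome II, and all intervals but that of chromosome XIV include the line.

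Toward the chromosome ends, long gaps were scarce in the last 10 kb and most frequent just inside. The outermost 10 kb of all ends together held 5 long gaps, or 15.6 per Mb (interval 5.07 to 36.5). Between 10 and 20 kb there were 59.4 per Mb, and between 20 and 50 kb there were 74.0 per Mb (71 gaps, interval 57.8 to 93.3). Farther inside, densities were 56.3 per Mb between 50 and 100 kb, 48.6 between 100 and 200 kb, and 53.9 beyond 200 kb. Gaps under 2000 bp were also scarce in the last 10 kb (275 per Mb), but between 20 and 50 kb they were not more frequent than farther inside (501 per Mb, against 539 to 555 in the 3 inner classes).

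In all, 95 of 648 long gaps (14.7%, interval 12.1 to 17.6%) had their midpoint within 50 kb of an end, against 726 of 6438 shorter gaps (11.3%, interval 10.5 to 12.1%). The difference was 3.38 percentage points (interval 0.746 to 6.41). Within 20 kb the shares were 3.70% of long gaps and 3.81% of shorter gaps, so the excess lay between 20 and 50 kb. The outermost long gap of the 32 chromosome ends lay at a median of 19.2 kb from the end, between 4.116 kb on the left end of chromosome VII and 60.0 kb. At the left ends Rrm3 itself reached close to the start of the count: its first cluster began at position 12 to 43 on every chromosome. The right ends were set by the last cluster border in the 3 lists.

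**Figure D3:**
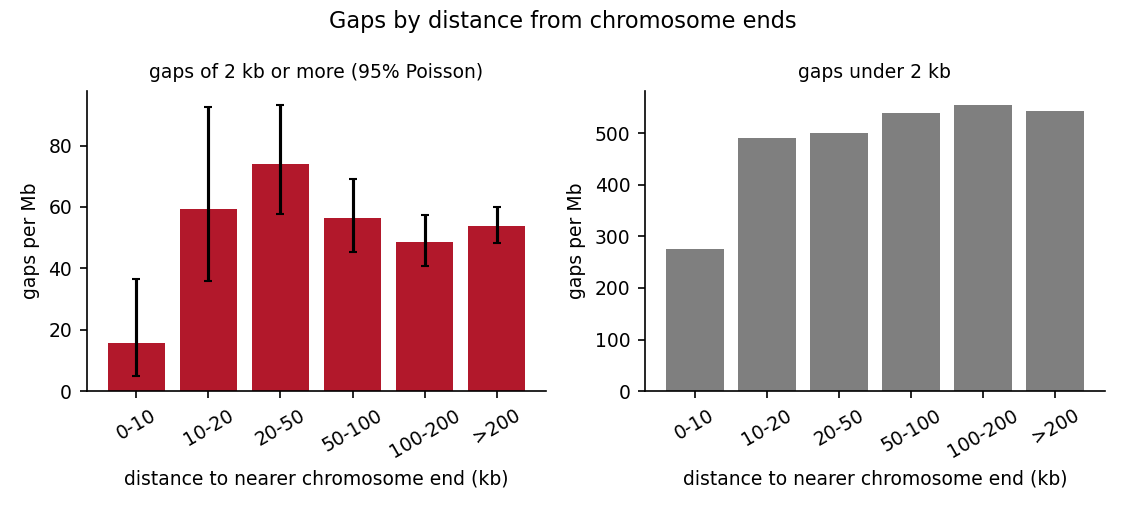
Gaps per Mb (y axes, each starting at 0) by distance of the gap midpoint from the nearer chromosome end (x axes, kb), for long gaps with 95% Poisson intervals on the left and gaps under 2 kb on the right. Long gaps reach 74.0 per Mb between 20 and 50 kb and only 15.6 per Mb in the last 10 kb, where shorter gaps are also few (275 per Mb).

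Long gaps were mostly solitary. Of the 648, 127 (19.6%, interval 16.7 to 22.8%) had another long gap as their next gap on either side, with 1 Rrm3 cluster between. Of the 6438 shorter gaps, 1106 (17.2%, interval 16.3 to 18.1%) had a long gap beside them. The difference was 2.42 percentage points and its interval (-0.604 to 5.77) included 0. With a limit of 3000 bp the shares were 10.2% of long gaps and 5.40% of shorter gaps. With a limit of 1500 bp they were 34.9% of long gaps and 30.9% of shorter gaps. No interval was computed for these 2 differences. The long gaps fell into 521 single gaps, 51 pairs, 7 runs of 3 and 1 run of 4.

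The run of 4 lay on chromosome X between positions 504911 and 517908. Its gaps of 2780, 2723, 4797 and 2037 bp made up 94.9% of 12998 bp, in which Rrm3 clusters summed to 661 bp. The longest run of 3 was on chromosome I (93323 to 103947, gaps of 2317, 3475 and 2771 bp) and thus held 3 of the 7 long gaps of that chromosome. A run also lay close to a chromosome end, on chromosome V (6826 to 16799, gaps of 2987, 4210 and 2237 bp). The other runs of 3 were on chromosomes II (670384 to 680011), XIV (738301 to 747904), XIII (705028 to 713270), XI (268565 to 276736) and X (707452 to 715290, of which 96.1% was gap). Of the 25 gaps in these 8 runs, 0 touched a Thp1 or Sac3 cluster, where 5.09% of all long gaps did, so a count of 0 does not set the runs apart. The closest pair was also on chromosome X (304998 to 311129), where a cluster of 106 bp parted gaps of 3205 and 2821 bp. Removal of such short clusters would join neighboring gaps.

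The midpoints of consecutive long gaps on a chromosome were 12.9 kb apart in the median (632 distances, mean 17.9 ± 16.2 kb SD, 2.25 to 120.8 kb). Of these distances, 108 (17.1%) were under 5 kb and 30 were over 50 kb. The widest lay on chromosome XIV, the only chromosome whose interval of long gaps per Mb lay under the value of all chromosomes. The 232 full windows of 50 kb held 2.68 long gaps on average with a variance of 2.29, a ratio of 0.855, so counts varied slightly less than their mean. The median was 2, the maximum 7, and 11 windows held 0.

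Windows with more long gaps held fewer TREX-2 clusters. Thp1 clusters numbered 11.6 ± 3.88 (SD across windows) in the 50 windows with 0 or 1 long gap, 10.4 ± 3.98 in the 115 windows with 2 or 3, and 8.91 ± 3.62 in the 67 windows with 4 or more. Sac3 clusters numbered 11.0 ± 3.12 in windows with 0 or 1 long gap, 9.51 ± 3.24 with 2 or 3, and 8.01 ± 2.95 with 4 or more. The spread within each class was larger than the differences between the class means, so single windows overlapped widely. Thp1 had many more clusters than Sac3 on chromosome IV (311 and 185 per Mb), and without this chromosome the Thp1 means over these classes were 11.0, 9.46 and 8.20 clusters. All but 38 of 2485 Thp1 clusters and 7 of 2282 Sac3 clusters shared DNA with Rrm3, and windows rich in long gaps have less room for these. The part of this in the difference was not tested.

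**Figure D4:**
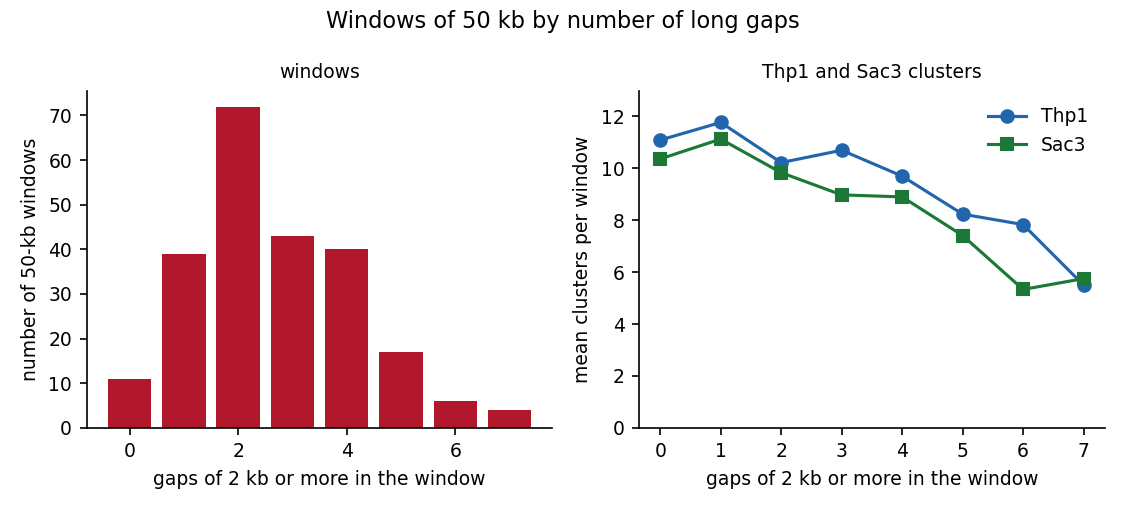
Left, number of 50-kb windows (y axis) by the number of long gaps in the window (x axis), with 11 windows at 0 and a maximum of 7 gaps. Right, mean number of Thp1 (circles) and Sac3 (squares) clusters in these windows (y axis), which is 11.1 and 10.4 with 0 long gaps and 9.70 and 8.90 with 4.

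Few long gaps held Thp1 or Sac3, and few gaps of any length did. A Thp1 cluster shared at least 1 bp with 29 long gaps (4.48%, interval 3.13 to 6.35%), against 173 shorter gaps (2.69%, interval 2.32 to 3.11%). Over gaps of any length the share was 2.85%. A Sac3 cluster touched 14 long gaps (2.16%, interval 1.29 to 3.59%), against 84 shorter gaps (1.30%, interval 1.06 to 1.61%), with 1.38% over gaps of any length. With a limit of 3000 bp the order for Sac3 turned, with 0.508% of long gaps and 1.41% of shorter gaps. This rested on 1 of 197 long gaps (interval 0.0897 to 2.82%), and the interval included the share of shorter gaps. At the limit of 2000 bp, 615 of 648 long gaps (94.9%) touched neither protein, 33 touched at least one of them, and 10 touched both. These joint counts were made for long gaps alone, so they do not set long gaps apart from other gaps. On chromosome IV, 12 of 83 long gaps touched Thp1 and 2 touched Sac3. Without this chromosome the Thp1 shares were 3.01% of long gaps and 2.21% of shorter gaps, with overlapping intervals (1.89 to 4.77% for long and 1.86 to 2.63% for shorter gaps).

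The direction of the comparison turned with the measure. A long gap offers more DNA than a short one but the same number of edges, and the part of this was not tested. Per Mb of gap, 17.4 Thp1 clusters touched long gaps (interval 11.9 to 24.6) and 35.6 touched shorter gaps (interval 30.5 to 41.2). For Sac3 the values were 8.18 per Mb in long gaps (interval 4.58 to 13.5) and 17.2 in shorter gaps (interval 13.7 to 21.2). Thp1 covered 0.324% of the DNA of long gaps and 0.444% of that of shorter gaps, and Sac3 covered 0.113% of the DNA of long gaps and 0.180% of that of shorter gaps. Counted per gap edge, Thp1 crossed 15 of 1296 edges of long gaps (1.16%, interval 0.703 to 1.90%) and 171 of 12876 edges of shorter gaps (1.33%, interval 1.14 to 1.54%). Sac3 crossed 0.772% of the edges of long gaps and 0.707% of those of shorter gaps. The intervals per edge overlapped for both proteins.

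Clusters that lay wholly inside a gap gave the opposite order per Mb. There were 17 whole Thp1 clusters in long gaps, or 9.27 per Mb (interval 5.40 to 14.8), and 21 in shorter gaps, or 4.19 per Mb (interval 2.60 to 6.41). Without chromosome IV these were 6.92 per Mb in long gaps and 3.22 in shorter gaps. For Sac3 there were 5 whole clusters in long gaps, or 2.73 per Mb (interval 0.885 to 6.36), and 2 in shorter gaps, or 0.399 per Mb (interval 0.0484 to 1.44). The intervals of long and shorter gaps overlapped for both proteins, and for Thp1 also without chromosome IV. A cluster of at least 100 bp has less room to lie whole in a short gap, and the part of this was not tested. Of the 38 Thp1 clusters without any Rrm3, 44.7% lay in long gaps, and of the 7 such Sac3 clusters 71.4%, while long gaps made up 26.8% of the gap DNA.

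At matched distances from the edge, the cover of long and shorter gaps was close in the outermost 50 bp and differed in no constant direction farther inside. In the first 50 bp inside a gap Thp1 covered 0.960% of the DNA in long gaps and 1.04% in shorter gaps. Between 100 and 250 bp it covered 0.289% in long gaps and 0.400% in shorter gaps. Between 250 and 500 bp Thp1 covered 0.125% in long gaps and 0.225% in shorter gaps, and between 500 and 1000 bp 0.266% in long gaps and 0.240% in shorter gaps. Sac3 covered 0.596% of the first 50 bp in long gaps and 0.581% in shorter gaps, and between 100 and 250 bp 0.126% in long gaps and 0.164% in shorter gaps. Between 250 and 500 bp Sac3 covered 0.0512% in long gaps and 0.0269% in shorter gaps, and between 500 and 1000 bp 0.0651% and 0.0242%. Between 50 and 100 bp Thp1 covered 0.574% in long gaps and 0.658% in shorter gaps, and Sac3 0.424% and 0.320%. Thp1 cover was thus lower in long gaps up to 500 bp, and Sac3 cover was higher except between 100 and 250 bp. A TREX-2 cluster covered the midpoint of 3 long gaps (0.463%) and of 29 shorter gaps (0.450%). The difference was 0.0125 percentage points (interval -0.350 to 0.912). Midpoints of long gaps lie farther from the edges, so this comparison was not matched by distance. By gap length, Thp1 covered the midpoint of 0.561% of gaps under 500 bp, 0.167% between 1000 and 2000 bp and 0.443% between 2000 and 3000 bp. For Sac3 these shares were 0.345, 0.0557 and 0.222%. Of the 197 gaps of 3000 bp or more, 0 had either protein at the midpoint.

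The 17 Thp1 clusters wholly inside long gaps were short, with a median of 201 bp (105 to 975 bp), and 13 of them were under 300 bp, the stated resolution of the array. Of the 17, 3 shared DNA with a Sac3 cluster (17.6%, interval 6.19 to 41.0%), and of the 21 whole Thp1 clusters in shorter gaps 2 did (9.52%, interval 2.65 to 28.9%). Over the whole Thp1 list the share was 78.6%, and over its 1447 clusters under 300 bp 67.9%. A Thp1 cluster inside a gap can share DNA only with a Sac3 cluster that reaches into that gap. Sac3 reached into 98 of 7086 gaps of any length, and the part of this in the low shares was not tested. Without chromosome IV, 3 of 11 whole clusters in long gaps and 2 of 14 in shorter gaps shared DNA with Sac3. Of the 15 Thp1 clusters that crossed the edge of a long gap, 13 shared DNA with Sac3, and they reached 60 bp into the gap in the median (8 to 238 bp). Of the 5 whole Sac3 clusters 2 shared DNA with Thp1, and of the 10 that crossed an edge 9 did so.

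The longest whole Thp1 cluster, 975 bp (150193 to 151167), lay in the gap of 6763 bp on chromosome III, 899 bp from its nearer edge. A Thp1 cluster of 653 bp lay on chromosome XIV (769877 to 770529), and one of 330 bp on chromosome V (475040 to 475369). The left end of chromosome VII carried the densest case, a gap of 2001 bp (4117 to 6117). It held whole Thp1 clusters of 445 bp (4182 to 4626) and 201 bp (5224 to 5424) and a whole Sac3 cluster of 353 bp (4904 to 5256), and a further Sac3 cluster crossed its edge. This gap was the long gap nearest to any chromosome end.

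Another gap with both proteins wholly inside was on chromosome XV (687512 to 690381), where a Thp1 cluster of 135 bp and a Sac3 cluster of 147 bp ended at the same position, 688588. On chromosome III a Thp1 cluster of 134 bp (271241 to 271374) lay 15 bp inside a gap and shared DNA with a Sac3 cluster that crossed the edge. The longest whole Sac3 cluster, 392 bp, was on chromosome I (190691 to 191082), and it shared no DNA with Thp1. On chromosome IV, 6 clusters of 105 to 216 bp made up the largest group of whole Thp1 clusters on any chromosome, and 0 of these shared DNA with Sac3. They included both clusters of the longest gap (382611 to 382796 and 385040 to 385228), which lay more than 2000 bp from its edges.

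Outside the long gaps, DNA was poorer in TREX-2 than outside shorter gaps. In the 5 kb on either side, Thp1 covered 7.97% of the DNA beside long gaps and 9.53% beside shorter gaps, and Sac3 covered 7.63% beside long gaps and 9.32% beside shorter gaps. For each protein the cover was lower at long gaps on 14 of 16 chromosomes, and chromosomes III and V were the exceptions for both. Without chromosome IV, Thp1 covered 7.09% beside long gaps and 8.75% beside shorter gaps. Beside long gaps Thp1 cover was lowest between 1 and 1.5 kb from the edge, at 6.77%, against 8.91% beside shorter gaps. It stayed lower beside long gaps in every bin up to 9.5 kb, with 10.4% against 10.5% beside shorter gaps between 9 and 9.5 kb. Only in the last bin, between 9.5 and 10 kb, was it higher, with 11.2% beside long gaps and 10.3% beside shorter gaps. Sac3 followed the same course, with 6.26% beside long gaps and 8.88% beside shorter gaps between 1 and 1.5 kb. Rrm3 cover between 1 and 1.5 kb was also lower beside long gaps, 36.2% against 41.7% beside shorter gaps, and its part in the TREX-2 values was not tested.

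**Figure D5:**
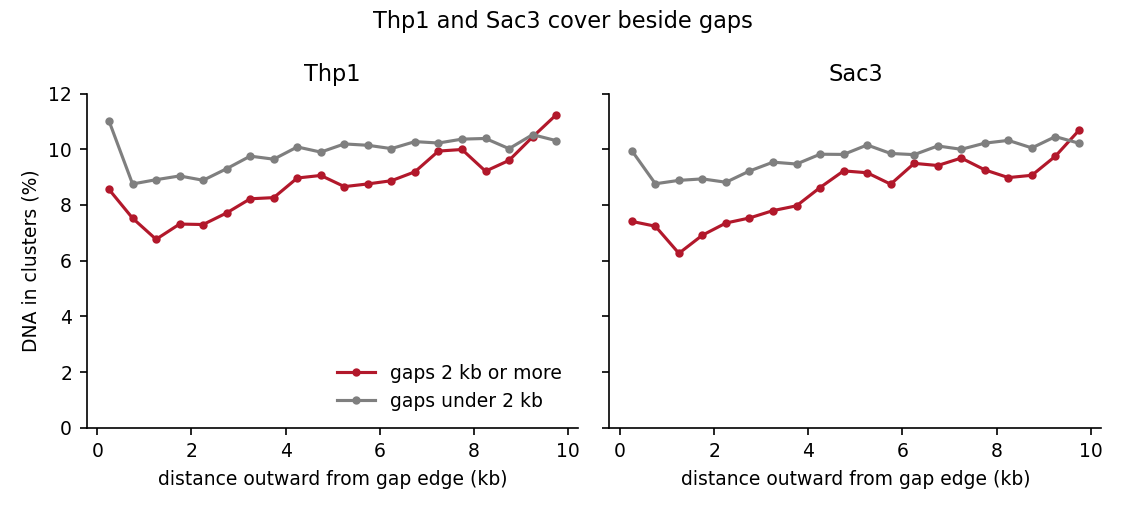
Share of DNA in Thp1 clusters (left) and Sac3 clusters (right) on the y axes, in bins of 500 bp outward from the edges of long gaps (red) and of gaps under 2 kb (gray), by distance from the edge in kb on the x axes. For Thp1 the red line runs at 8.56% in the first bin and 6.77% between 1 and 1.5 kb, under the gray line at 11.0% and 8.91%, and meets it toward 10 kb.

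The nearest TREX-2 cluster was correspondingly farther away. Measured outward from the nearer edge, the nearest Thp1 or Sac3 cluster lay 1054 bp from long gaps in the median (interval 817 to 1284) and 711 bp from shorter gaps (interval 663 to 757). For Thp1 alone the medians were 1332 bp for long gaps and 963.5 bp for shorter gaps, and for Sac3 1650.5 bp for long gaps and 1077.5 bp for shorter gaps. The intervals of long and shorter gaps did not overlap for Sac3 (1409 to 1892 bp for long and 997 to 1149 bp for shorter gaps) or for Thp1 (1050 to 1565 bp for long and 901 to 1017 bp for shorter gaps).

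Long gaps were also common in wide tracts without TREX-2. The lists left 244 stretches of at least 10 kb with neither Thp1 nor Sac3, which made up 30.5% of the span. Of the long gaps, 314 (48.5%, interval 44.6 to 52.3%) lay wholly in such a stretch, against 1962 of the shorter gaps (30.5%, interval 29.4 to 31.6%). The difference was 18.0 percentage points (interval 14.0 to 22.0). These stretches held 85.3 long gaps per Mb, against 53.7 per Mb overall. A long gap without TREX-2 fills more of such a stretch by its own length than a short one. All but 38 Thp1 and 7 Sac3 clusters also shared DNA with Rrm3, so DNA without Rrm3 mostly lacks TREX-2. The part of each in these differences was not tested. The stretch with the most long gaps, 6, was on chromosome XV (345485 to 378981).

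The Rrm3 clusters that bordered long gaps were slightly shorter than the rest. The 1228 clusters beside a long gap had a median of 417 bp (interval 390 to 439), and the 5843 clusters between shorter gaps a median of 465 bp (interval 449 to 479). Of the clusters beside long gaps, 345 (28.1%, interval 25.7 to 30.7%) touched Thp1 or Sac3, against 1902 (32.6%, interval 31.4 to 33.8%) of those between shorter gaps. The difference was -4.46 percentage points (interval -7.18 to -1.62). Its size depended on the limit. The shares were 30.7% beside long gaps and 31.8% between shorter gaps at 3000 bp, and 26.9% and 34.0% at 1500 bp.

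Within classes of cluster length the share beside long gaps was lower in 3 of 4 classes, with intervals of the difference that included 0 in each class. Under 300 bp, 3.09% of the clusters beside long gaps and 4.56% of those between shorter gaps touched Thp1 or Sac3. Between 300 and 600 bp, 97 of 388 clusters beside long gaps and 434 of 1823 of those between shorter gaps did so, and between 600 and 1200 bp 44.2% of those beside long gaps and 47.7% of those between shorter gaps did. Among clusters of 1200 bp or more the shares were 76.6% beside long gaps and 82.3% between shorter gaps. This class has no upper limit, and clusters ran up to 8495 bp beside long gaps and 38099 bp between shorter gaps. The part of length within this class was not tested. The differences in these 4 classes, by rising length, were -1.47, 1.19, -3.56 and -5.70 percentage points. For Sac3 alone, clusters of 1200 bp or more differed by -9.52 percentage points (interval -17.7 to -2.11), with 68.2% touching Sac3 beside long gaps and 77.7% between shorter gaps. This was the only interval without 0 among the 12 that were computed by length class and protein.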

How the data were processed

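The authors read IP and SUP arrays with the Tiling Array Suite (TAS) and, by the methods, quantile-normalized the 2 Rrm3 repetitions. Clusters were stretches whose IP/SUP signal was above 0 at a P-value under 0.01, with a run of at least 100 bp and inner gaps of at most 250 bp. The values deposited by the authors are cluster borders in base pairs, and the genome build is not given in the sources used here.

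Gaps were computed between consecutive Rrm3 clusters, and each chromosome was taken to span up to the last cluster border found in the 3 lists. A cluster counted as in a gap with at least 1 bp in common. Python 3.11.15, numpy 2.4.6, pandas 2.3.3, scipy 1.17.1 and matplotlib 3.10.9 were used, and the functions were checked on simulated lists. The regions named were the 10 longest gaps, the gaps around the limit, the closest pair, runs of 3 or more, and the gaps with whole Thp1 or Sac3 clusters, longest cluster first. The gaps, the limit and these rules were chosen with earlier results of these data known. The 2 samples of Rrm3 in thp1Δ cells were not used.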

Additional observations from a re-analysis of the deposited data

How the results depend on the processing

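Of 96 alternative values, 60 moved by less than the counting interval or 1.5 times, and 36 moved by more. The order of long against shorter gaps turned in 4 of these, which are given with the values of shorter gaps. Cover within 5 kb and the share of gaps with TREX-2 at the midpoint were added after the data were examined. Cover was lower beside long gaps in all its alternatives, and the midpoint share without chromosome IV was 0.531% of long gaps against 0.392% of shorter gaps. With a limit of 1500 bp there were 1239 long gaps (103 per Mb, median 2037 bp, 41.6% of the Rrm3-free DNA), of which 34.9% had another beside them. Of the shorter gaps, 30.9% then had a long gap beside them. With a limit of 3000 bp these were 197 gaps (16.3 per Mb, 3556 bp, 11.0%) and 10.2%, against 5.40% of shorter gaps beside a long gap. Sac3 then touched only 1 long gap (0.508%, 1.33 clusters per Mb of long gaps) against 1.41% of shorter gaps. At that limit 30.7% of flanking Rrm3 clusters touched TREX-2, against 31.8% of clusters between shorter gaps. With Rrm3 clusters of at least 300 bp there were 1144 long gaps (94.8 per Mb, 3009.5 bp, 54.9% of the Rrm3-free DNA against 45.1% in shorter gaps). Then 45.1% had another beside them, against 39.8% of shorter gaps with a long gap beside them. Thp1 touched 8.04% of these long gaps (25.2 per Mb) and Sac3 4.02%. Flanking clusters had a median of 620 bp and touched TREX-2 in 40.2%, against 46.7% of clusters between shorter gaps. Without chromosome IV Thp1 touched 3.01% of long gaps. With Thp1 and Sac3 clusters of at least 300 bp it touched 2.47% (8.72 per Mb), and 12.2% of flanking clusters touched TREX-2. Counting whole clusters, Thp1 lay in 2.31% (9.27 per Mb) and Sac3 in 0.772% (2.73 per Mb) of long gaps, against 4.19 and 0.399 per Mb of shorter gaps. Counting cluster midpoints gave the same values for long gaps, against 9.39 Thp1 and 2.996 Sac3 clusters per Mb of shorter gaps. Without gaps within 20 kb of an end, 11.4% of long gaps lay within 50 kb of one. The cause was not tested where the construction does not show it. No paired analysis was possible because there is 1 combined Rrm3 list and 1 list each for Thp1 and Sac3, and for the same reason no replicate was left out. A planned look at genes and sequence was not run, as the lists name no build. Precision is limited by the number of arrays, and cluster calls without signal do not show how far gaps lie under the threshold.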

Other observations

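Along the chromosomes as numbered in the list, long gaps were more numerous toward the right end. When each chromosome was divided at its middle, 361 long gaps lay on the right and 287 on the left, and the right part held more on 13 of 16 chromosomes. Chromosome VI, with 14 on the right and 4 on the left, showed the widest contrast in proportion, and chromosomes I, V and XIII had more on the left. In 5 equal parts of each chromosome, from left to right, 17.3, 16.0, 20.2, 23.0 and 23.5% of the long gaps were found, against 20.3, 21.4, 20.4, 19.3 and 18.6% of the gaps under 2000 bp. No test was made.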
